A study of Mus musculus with 8 samples.

Results

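The genes described here serve the unfolded protein response of the endoplasmic reticulum, the integrated stress response and the heat shock response. A list of 31 such genes was read in microarray profiles of mouse T cell leukemia lines, each gene by the brightest of the probe sets that carry its symbol alone. Of these, 30 were measured, and Hsp90ab1 had no probe set of its own and was not analysed here. The 30 genes are part of 18193 genes with a probe set of their own. Total RNA came from thymic leukemia cells of E2a-deficient FVB/NJ mice, cultured as lines, and the arrays form 4 groups of 2. The E2a-/- line has intact Lef1, a gene for a TCF/LEF transcription factor, and was infected with MigR1, a retrovirus that carries GFP, or with MigR1-Cre, which also carries the Cre recombinase. The E2a-/-Lef1F/F line, called the Lef1F/F line below, lacks E2a as well and carries loxP sites around a part of Lef1 that encodes its DNA binding domain, so that Cre can remove this part. It was infected with the same viruses, and GFP+ cells of all 4 groups were taken 72 hours after infection. Each genotype is 1 line, so that line and genotype cannot be told apart, and the labels do not say whether arrays of a group came from separate cultures. The p-values therefore measure only the spread between these arrays, which may be technical.

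Proteins that misfold in the endoplasmic reticulum are sensed by IRE1, ATF6 and PERK. IRE1 splices the messenger RNA of Xbp1, ATF6 is cleaved to a transcription factor, and chaperones such as Hspa5 (BiP) follow. PERK also belongs to the integrated stress response, in which it, GCN2, PKR and HRI phosphorylate eIF2, general translation slows and Atf4 messenger RNA is translated. ATF4 then drives genes for amino acid synthesis and transport. In the cytosol, HSF1 drives chaperones such as Hsp70 when proteins unfold. Leukemic T cells divide fast and depend on supply of amino acids such as asparagine and serine.

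These responses act through short promoter sequences. RefSeq windows of assembly GRCm38.p6, from 250 bases before to 50 bases after a start, covered 27 of the 31 genes. The core of a heat shock element, GAANNTTC, lay in 9 of these 27 genes (Asns, Bag3, Dnaja1, Hspa1a, Hspa1b, Hspb1, Hspd1, Hspe1 and Hsph1), against 7.86% of all 32851 windows. The core with a further GAA unit at its side, an element of 3 units, lay in Hspd1, Hspe1 and Hsph1 and in 0.603% of windows. The composite to which ATF4 and CEBP proteins bind, TGATGNAA, lay in Asns, Atf3, Chac1, Herpud1, Nupr1, Trib3 and Vldlr and in 3.97% of windows. The endoplasmic reticulum stress element, CCAAT and CCACG with 9 bases between them, lay in Hspa5 and Hsp90b1 and in 0.119% of windows, and TGACGTGG lay in no member and in 0.676% of windows. Each search took both strands, and a match is no proof of a bound site. A member counted if any of its windows held the match, while the shares are over windows, of which some genes have several. The stretches below are shown because these genes are among those with the widest differences described further on, with the matches in capitals: the core in Hspa1b, the overlapping matches of the 3 unit element in Hspe1 and the composite in Asns.
Hspa1b, chr17:34959289-34959388, minus strand: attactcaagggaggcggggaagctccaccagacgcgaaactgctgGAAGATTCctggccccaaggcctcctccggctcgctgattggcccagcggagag
Hspe1, chr1:55088008-55088107, plus strand: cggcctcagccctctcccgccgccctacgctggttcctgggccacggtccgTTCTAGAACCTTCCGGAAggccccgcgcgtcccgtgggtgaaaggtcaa
Asns, chr6:7693210-7693309, minus strand: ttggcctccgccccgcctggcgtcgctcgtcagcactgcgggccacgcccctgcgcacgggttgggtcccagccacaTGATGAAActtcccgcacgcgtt
Hspa1a, at chr17:34972207-34972306, has the same letters as Hspa1b at all 100 positions of its stretch. These genes encode near-identical inducible Hsp70 proteins, and signal of either gene may reach the probe sets named for the other, so that values given for Hspa1b are uncertain as to the copy. Hspd1 and Hspe1, which encode the mitochondrial chaperonin Hsp60 and its lid Hsp10, lie head to head, and the window of Hspe1 shares 285 bases with a window of Hspd1. In Asns the composite shares bases with a heat shock core.

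Levels are RMA intensities, the summarised brightness of a probe set on a linear scale, and the median of an array lay near 90, with 3 members below the lowest array median. Differences are log2 differences ± the moderated standard error of limma, and a call is an adjusted p below 0.05 over all 45037 probe sets. The retrovirus field of the labels goes against the titles for E2a-/- MigR1-Cre and for Lef1F/F MigR1 arrays, and the groups follow the titles. Lef1 could check the virus only in the Lef1F/F line, since the E2a-/- line has no floxed allele for Cre to cut. Its mean intensity was 3313 ± 35 (SD, n = 2) in E2a-/- MigR1, 3212 ± 289 in E2a-/- MigR1-Cre, 6522 ± 560 in Lef1F/F MigR1 and 1790 ± 159 in Lef1F/F MigR1-Cre arrays. Markers of T cells were bright in all arrays (8 genes measured, summed intensity 32167 to 43728), while summed B cell (5 genes), myeloid (5 genes) and erythroid (4 genes) markers stayed between 368 and 517. The Lef1F/F arrays stood apart in another way: array 1 of MigR1 correlated more closely with array 1 of MigR1-Cre (r = 0.9975) than with its own replicate (r = 0.9945), and the same held for the arrays numbered 2 (r = 0.9975). These are correlations across probe sets, and the numbers follow the order of the records, not a pairing in the labels.

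**Figure D1:**
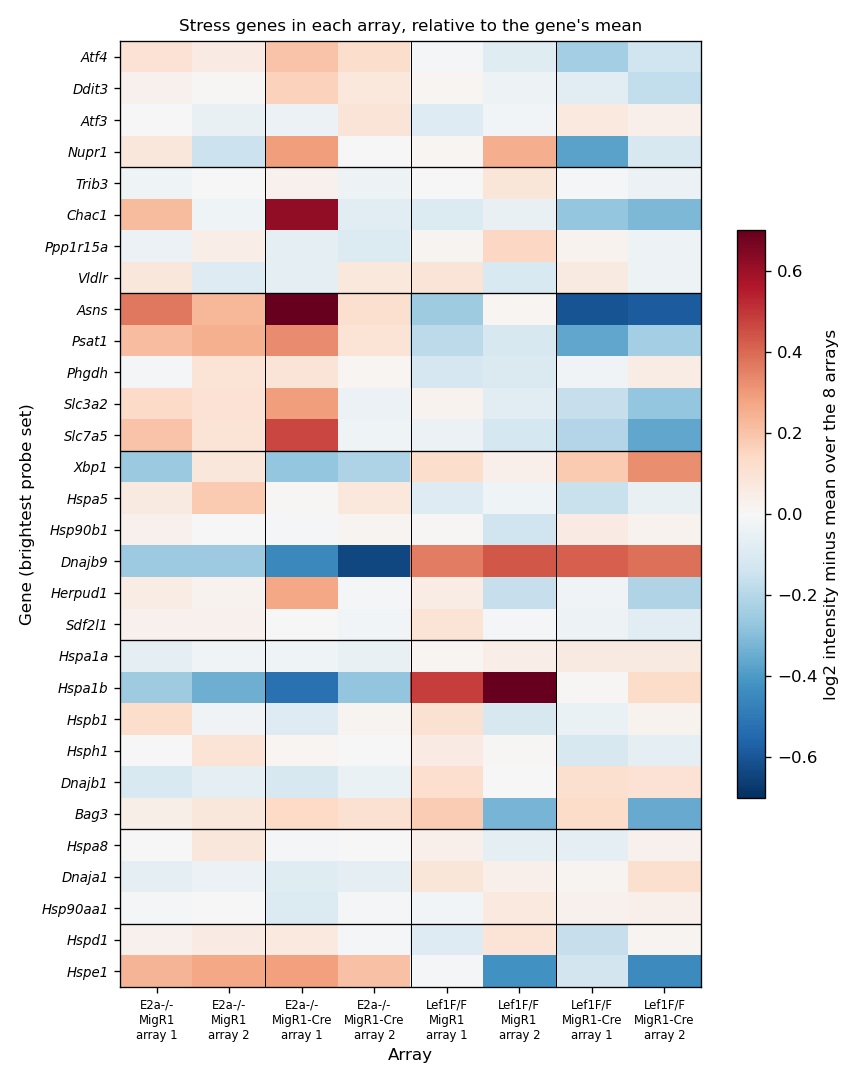
Log2 intensity of the 30 measured genes in each of the 8 arrays, minus the gene's mean over the arrays. Columns are arrays, rows are genes by role with the integrated stress response at the top, the endoplasmic reticulum in the middle and heat shock below, and blue stands for lower and red for higher. Asns is lowest in the Lef1F/F MigR1-Cre arrays, and Dnajb9 and Hspa1b are higher in the Lef1F/F arrays.

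Cre in the Lef1F/F line asked what removal of the LEF1 DNA binding domain did to these genes. Lef1 fell 3.64-fold at its brightest probe set and 5.80-fold at a second, and signal remained. How complete the removal was in the GFP+ cells cannot be read from these intensities. None of the 30 passed the threshold, where 0.167% of all probe sets did. An unadjusted p below 0.05 in limma was found for 3 of the 30 (Hspa1b, Nupr1 and Asns, all lower), against 4.66% of all probe sets. Both Cre arrays lay below both MigR1 arrays for 9 of the 13 genes of the integrated stress response and amino acid supply, and above them for 2. Over all 30 members this was 12 below and 5 above, where 13.7% of all probe sets lay below and 15.4% above. Those shares take in dim probe sets and ones without a symbol, while a member is the brightest of its gene, so the sets are unlike. The median log2 difference was -0.14 over the 13 genes and 0.00 over all probe sets. In bulk RNA, fewer cells of a type and less RNA per cell cannot be told apart.

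Asns encodes asparagine synthetase, which makes asparagine from aspartate. Its intensity was 437 and 523 in Lef1F/F MigR1 and 341 and 346 in Lef1F/F MigR1-Cre arrays, and 668 and 609 in E2a-/- MigR1 and 846 and 559.8 in E2a-/- MigR1-Cre arrays. The Lef1F/F groups did not overlap, and the E2a-/- groups did. The difference by Cre was -0.48 ± 0.17 in the Lef1F/F line (95% interval -0.88 to -0.07, adjusted p = 0.959), a 1.39-fold lower level, and a second probe set gave -0.46. Nupr1, a small stress-induced chromatin protein, read 105 and 125 in Lef1F/F MigR1 arrays and 80.7 and 96.8 in Lef1F/F MigR1-Cre arrays. Its E2a-/- arrays read 110.3 and 94.0 with MigR1 and 128 and 104 with MigR1-Cre. Nupr1 was dim, with a mean of 105.5 over the 8 arrays, not far above the array medians. Its Lef1F/F groups were apart and the difference was -0.38 ± 0.14 (adjusted p = 0.967), with -0.37 ± 0.07 at a dimmer probe set (adjusted p = 0.237). Without Lef1F/F MigR1-Cre array 1 it was -0.25 (adjusted p = 0.89).

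Atf4, the transcription factor at the centre of the response, read 3333 and 3162 in Lef1F/F MigR1 and 2850 and 3044 in Lef1F/F MigR1-Cre arrays. In E2a-/- arrays it read 3601 and 3489.7 with MigR1 and 3850 and 3660.2 with MigR1-Cre. At this probe set Cre arrays were the lower in the Lef1F/F line and the higher in the E2a-/- line, by -0.14 ± 0.07 and 0.08 ± 0.07, and neither passed (adjusted p = 1.00 for each). Its second probe set, also bright, gave -0.05 ± 0.10 in the Lef1F/F line and -0.15 ± 0.10 in the E2a-/- line, with overlapping arrays in both. The dimmest, near background, gave 0.13 ± 0.08 and 0.11 ± 0.08, so that the opposite directions for Atf4 rest on the brightest probe set. Ddit3 encodes CHOP, a transcription factor tied to cell death in lasting stress. It read 268 and 259 in Lef1F/F MigR1 and 251 and 236 in Lef1F/F MigR1-Cre arrays, a difference of -0.11 ± 0.06, and a dimmer probe set gave 0.07.

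The remaining members of this arm had larger unadjusted p-values in limma than those of Asns, Nupr1 and Atf4. Slc3a2 and Slc7a5, which form the transporter of large neutral amino acids, gave -0.19 ± 0.11 and -0.20 ± 0.15. Psat1 and Phgdh make serine, and gave -0.15 ± 0.09 and 0.12 ± 0.07. Chac1, which degrades glutathione, gave -0.22 ± 0.19, and Trib3, a pseudokinase that restrains the response, gave -0.06 ± 0.06. Ppp1r15a (GADD34), which guides the phosphatase of eIF2, gave -0.09 ± 0.07. Chac1, Trib3 and Ppp1r15a each had a mean below 180 over the arrays. Atf3 and the lipoprotein receptor gene Vldlr, both dim, gave 0.11 ± 0.07 and 0.02 ± 0.09. None of these passed.

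Among 25 measured genes of a wider ATF4 program, listed apart from the members, 0 passed in limma and 6 had an unadjusted p below 0.05, against 4.66% of all probe sets. Both Cre arrays were lower for 14 and higher for 2, against the 13.7% and 15.4% given above, and the median log2 difference was -0.11. Of 16 cytosolic aminoacyl-tRNA synthetases, which load amino acids on tRNAs and are partly ATF4 targets, 0 passed, 5 were lower in both arrays, none was higher, and the median was -0.08. The other pathway genes also had no call. Over all 126 of them, these lists included, 38 were lower and 7 higher in both arrays. In limma 9 had an unadjusted p below 0.05, against 4.66% of all probe sets. The lean was not limited to ATF4 genes. Below 0 were 14 of 18 sensors and eIF2 regulators, 25 of 37 further heat shock genes and 8 of 11 genes of endoplasmic reticulum degradation. Of 19 further folding genes of that compartment, 10 were below 0 and 9 above.

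The arm of the endoplasmic reticulum had no shared direction. Xbp1, the transcription factor of the IRE1 branch, read 1125 and 1057 in Lef1F/F MigR1 and 1173 and 1295 in Lef1F/F MigR1-Cre arrays, 0.18 ± 0.11 apart, and its other 3 probe sets gave 0.03 to 0.04. These arrays do not tell spliced from unspliced Xbp1. Hspa5, the main chaperone of the compartment, gave -0.04 ± 0.07, and Hsp90b1 (GRP94) gave 0.11 ± 0.07. Herpud1, which serves degradation of misfolded proteins, gave -0.06 ± 0.11, and Sdf2l1, a partner of Hsp40 proteins, gave -0.10 ± 0.06. Dnajb9, an Hsp40 cochaperone of BiP that holds IRE1 in check, gave 0.00 ± 0.07. The median over these 6 genes was -0.02.

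In the heat shock arm, Hspa1b had the lowest p of all members. It read 253 and 308 in Lef1F/F MigR1 and 182 and 198 in Lef1F/F MigR1-Cre arrays, and 152 and 143 in E2a-/- MigR1 and 126 and 149 in E2a-/- MigR1-Cre arrays. The Lef1F/F groups did not overlap, and the Cre arrays still lay above all 4 E2a-/- arrays. The difference was -0.56 ± 0.12 (95% interval -0.82 to -0.29, adjusted p = 0.255), 1.47-fold lower, and its other probe sets gave -0.50 and -0.52. None of the other chaperones passed. Hspa8, the constitutive Hsp70, gave -0.00 ± 0.07, and its cochaperones Dnaja1 and Dnajb1 gave 0.01 ± 0.06 and 0.05 ± 0.06. Hsp90aa1 gave 0.01 ± 0.06, Hspb1 (Hsp27) -0.01 ± 0.09, Hsph1 (Hsp110) -0.12 ± 0.06 with both Cre arrays lower, and Bag3, which links Hsp70 to autophagy, -0.04 ± 0.18. Hspd1 and Hspe1 gave -0.08 ± 0.09 and -0.07 ± 0.14. Hspa1a was dim in all arrays, between 43.8 and 47.9, and gave 0.03 ± 0.06.

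**Figure D2:**
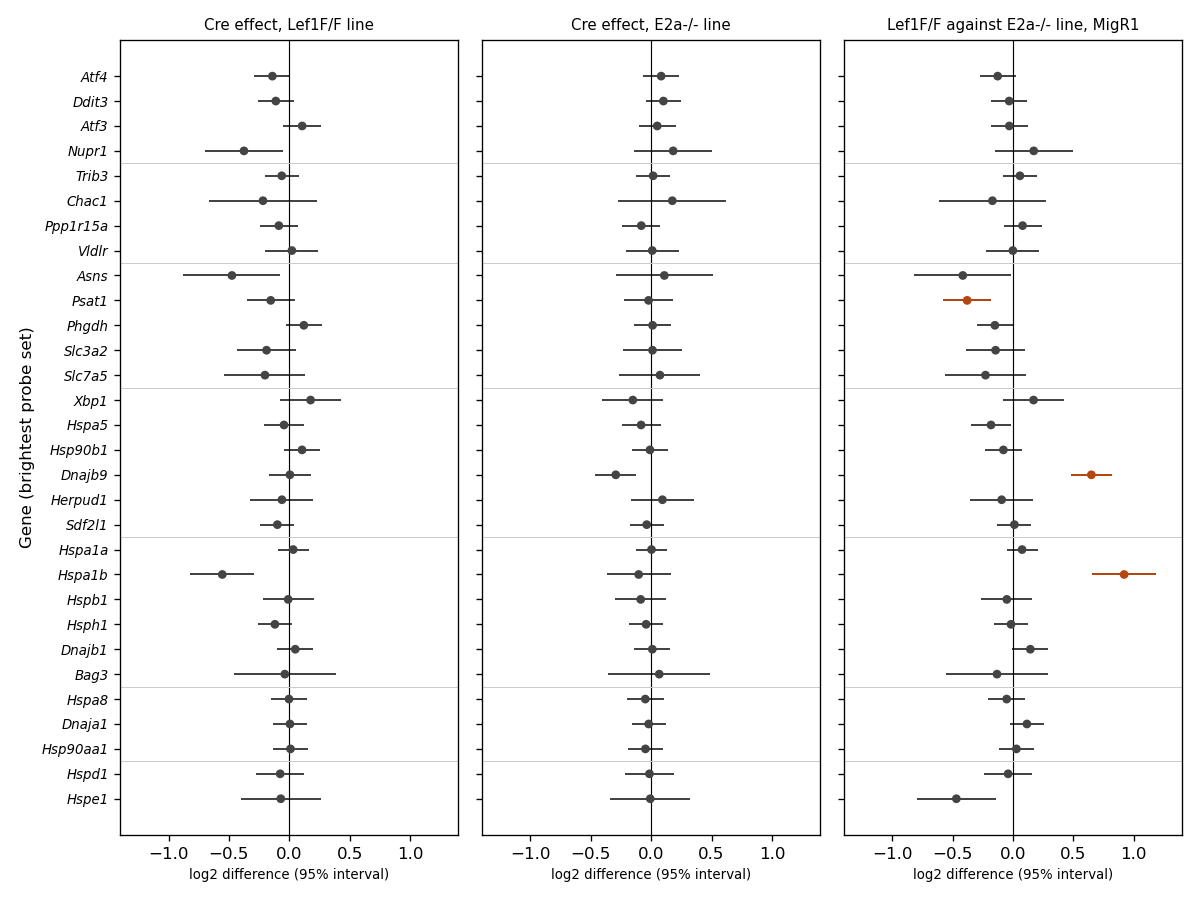
Log2 differences of the 30 genes with 95% intervals in 3 comparisons: Cre in the Lef1F/F line, Cre in the E2a-/- line, and MigR1 arrays of the Lef1F/F line against those of the E2a-/- line. Points in orange passed an adjusted p of 0.05, which were Psat1, Dnajb9 and Hspa1b in the comparison of lines.

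Cre in the E2a-/- line, which has no floxed allele, measured what the virus with Cre did by itself. The virus of these arrays was taken from the titles and could not be checked by Lef1. None of the 30 genes passed, and 0% of all probe sets did. An unadjusted p below 0.05 in limma was found for 836 probe sets and 1 member, Dnajb9. Dnajb9 read 238 and 238 in E2a-/- MigR1 and 207 and 182 in E2a-/- MigR1-Cre arrays, without overlap, and gave -0.29 ± 0.07 (95% interval -0.46 to -0.12, adjusted p = 1.00). Both Cre arrays were lower for 4 members (Dnajb9, Ppp1r15a, Sdf2l1 and Hspa8) and higher for 3 (Atf4, Ddit3 and Bag3), where 15.2% and 16.2% of all probe sets were. Ddit3 read 271 and 267 with MigR1 and 298 and 279.8 with MigR1-Cre, 0.10 ± 0.06. Xbp1 read 862.5 and 1089 with MigR1 and 855 and 890.1 with MigR1-Cre, -0.15 ± 0.11, and the sign turned without E2a-/- MigR1 array 2 (0.02).

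The 13 genes of the integrated stress response and amino acid supply were above 0 for 11 of 13 in this line, with a median of 0.05. This rested on a single array. E2a-/- MigR1-Cre array 1 was the highest of its line's 4 arrays for 9 of the 13 genes and for 4 of the 5 amino acid genes, where 23.3% of all probe sets had it highest. It lay above its replicate by 0.70 (log2) for Chac1, 0.59 for Asns, 0.50 for Slc7a5, 0.34 for Slc3a2 and 0.29 for Nupr1. Chac1 read 156 and 130.3 with MigR1 and 205 and 126 with MigR1-Cre, and Slc7a5 read 1462 and 1362 with MigR1 and 1764 and 1248 with MigR1-Cre. Without this array, 5 of the 13 genes were above 0, the median was -0.03, and all 5 amino acid genes were below 0. In the Lef1F/F line the count below 0 stayed at 10 or 11 of 13 without any 1 of its own 4 arrays. The E2a-/- arrays do not enter this difference.

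**Figure D3:**
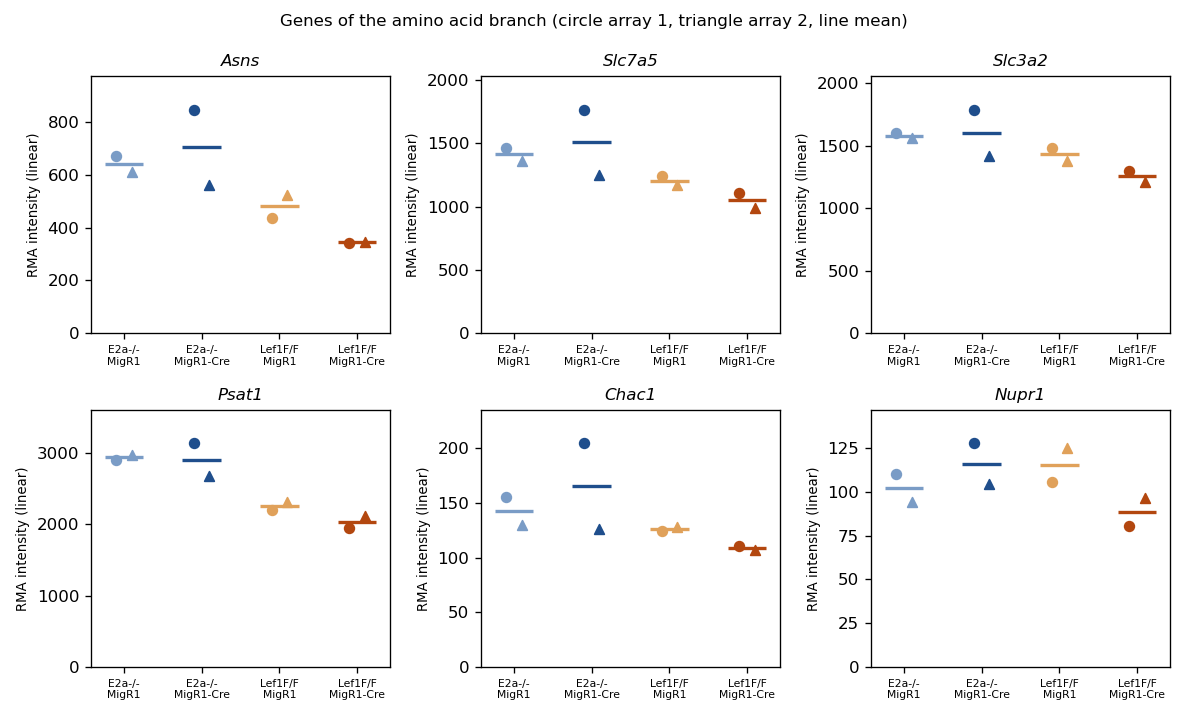
RMA intensity of Asns, Slc7a5, Slc3a2, Psat1, Chac1 and Nupr1 in each array, with circles for array 1, triangles for array 2 and lines for the group mean. E2a-/- MigR1-Cre array 1 is the highest array for all 6 genes, and the Lef1F/F MigR1-Cre group has the lowest mean for all 6. The 6 were picked from the 13 genes of this arm, of which 9 had that array highest in its line. Phgdh, not drawn, was highest in E2a-/- MigR1 array 2 and had its lowest mean in Lef1F/F MigR1.

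The difference of the Cre effects, Lef1F/F line minus E2a-/- line, is the test of whether the lines responded unequally, and it uses the same arrays as both effects. None of the 30 members passed, where 0.02% of all probe sets did. An unadjusted p below 0.05 in limma was found for 6 of the 30, against 3.23% of all probe sets. Nupr1 differed by -0.56 ± 0.20 (95% interval -1.01 to -0.10), Asns by -0.58 ± 0.25, Hspa1b by -0.45 ± 0.16, Atf4 by -0.22 ± 0.09, Ddit3 by -0.21 ± 0.09 and Dnajb9 by 0.30 ± 0.10, with an adjusted p of 1.00 for each. For Atf4 the sign turned at both dimmer probe sets (0.10 ± 0.14 and 0.02 ± 0.11). Of the 13 genes of the integrated stress response and amino acid supply, 10 were below 0, with a median of -0.20. The wider ATF4 program had 20 of 25 genes below 0 and a median of -0.19, and 0 calls. Without E2a-/- MigR1-Cre array 1, 11 of the 13 genes were below 0 and their median was -0.05, and Asns differed by -0.29.

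The lines were compared in their MigR1 arrays, which also serve as controls of both Cre effects. Here 3 of the 30 genes passed, where 10.7% of all probe sets did, so that this count lay near the share of all probe sets. Dnajb9 and Hspa1b were higher in the Lef1F/F line and Psat1 was lower. Both Lef1F/F arrays lay below both E2a-/- arrays for 9 members and above for 5, against 27.3% and 22.9% of all probe sets. With the Cre arrays added, all 4 Lef1F/F arrays lay below all 4 E2a-/- arrays for 6 members (Atf4, Asns, Psat1, Slc7a5, Hspa5 and Hspe1) and above for 5 (Dnajb9, Hspa1a, Hspa1b, Dnajb1 and Dnaja1), where 13.6% and 11.5% of all probe sets did.

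Dnajb9 rose by 0.65 ± 0.07 in the Lef1F/F line (95% interval 0.48 to 0.82, adjusted p = 0.000892), a 1.57-fold higher level. It read 363 and 383 in Lef1F/F MigR1 and 378 and 370.1 in Lef1F/F MigR1-Cre arrays, above every E2a-/- array. Hspa1b rose by 0.92 ± 0.12 (adjusted p = 0.00149), from 147 ± 6.96 to 280.3 ± 39.1 (SD, n = 2), and its other probe sets by 0.91 and 0.83. Hspa1a, whose stretch of promoter is the same, gave 0.08 ± 0.06 near the lower end of the scale. Of the other inducible chaperones, Hspb1, Hsph1, Dnajb1 and Bag3 gave -0.05 ± 0.09, -0.02 ± 0.06, 0.14 ± 0.06 and -0.13 ± 0.18, and none passed. Of 10 immediate early genes, which mark handling or fresh signalling, 5 passed in the same comparison, all higher, where 10.7% of all probe sets passed. Above 0 were 7 of the 10, and below 0 were 3. Egr1 gave 1.13 and Fos, dim in all arrays, 0.49, while Dusp1 gave -0.22 and Btg2 -0.52. A second probe set of Btg2 passed as lower (-0.64, adjusted p = 0.00601). With Cre in the Lef1F/F line, Egr1 fell (-0.69 ± 0.07, adjusted p = 0.0175). Yet 7 of the 10 immediate early genes were above 0 in that comparison, with a median of 0.05. Dusp1 gave 0.43 ± 0.11 there (adjusted p = 0.447). The part of immediate early genes in the Hspa1b difference was not tested.

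Psat1, phosphoserine aminotransferase, read 2898 and 2967 in E2a-/- MigR1 and 2199 and 2309 in Lef1F/F MigR1 arrays, and 3131 and 2665 in E2a-/- MigR1-Cre and 1939.9 and 2114 in Lef1F/F MigR1-Cre arrays. No Lef1F/F array reached an E2a-/- array. It fell by 0.38 ± 0.09 on the log2 scale (adjusted p = 0.0284), 1.30-fold, and a second probe set fell by 0.36 (adjusted p = 0.0123). The call for the brightest was lost without any 1 of the 4 MigR1 arrays. The adjusted p was then 0.139 and 0.173 without E2a-/- array 1 or 2, and 0.0927 and 0.0738 without Lef1F/F array 1 or 2. The 4 other amino acid genes were all lower without passing, with Asns at -0.42 ± 0.17 (adjusted p = 0.211), Slc7a5 at -0.23 ± 0.15, Phgdh at -0.15 ± 0.07 and Slc3a2 at -0.14 ± 0.11. Hspa5 gave -0.18 ± 0.07 (adjusted p = 0.172) at its brightest probe set, while both dimmer ones passed, at -0.29 ± 0.07 (adjusted p = 0.035) and -0.32 ± 0.07 (adjusted p = 0.0253). By probe set, 9 of the 67 that belong to members passed, from 5 genes, the last of them a dim probe set of Vldlr (-0.21 ± 0.05, adjusted p = 0.045).

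Hspe1 was unequal within the Lef1F/F groups. It read 7937 and 8092 in E2a-/- MigR1, 8192 and 7759.9 in E2a-/- MigR1-Cre, 6687 and 5012 in Lef1F/F MigR1 and 6156 and 4935 in Lef1F/F MigR1-Cre arrays. All Lef1F/F arrays were lower, and the difference in MigR1 arrays was -0.47 ± 0.14 (adjusted p = 0.0838), with -0.58 ± 0.21 at a second probe set. It passed without Lef1F/F MigR1 array 1 (-0.68, adjusted p = 0.0142) and without either Lef1F/F MigR1-Cre array (-0.47, adjusted p = 0.0481), and shrank to -0.26 without Lef1F/F MigR1 array 2 (adjusted p = 0.372). Within the Lef1F/F line, array 1 was above array 2 by 0.42 with MigR1 and 0.32 with MigR1-Cre. Bag3 did likewise, by 0.51 and 0.48, with 544 and 383 in MigR1 and 526 and 377 in MigR1-Cre arrays. These were 2 of 30 members that were apart by over 0.25 the same way in both vectors, where 7.28% of all probe sets were. Hspd1, the partner of Hspe1 with a shared promoter window, had no such order: it read 9947 and 11344 in MigR1 and 9469 and 10727 in MigR1-Cre arrays, with array 2 the higher, and gave -0.04 ± 0.09 between lines.

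**Figure D4:**
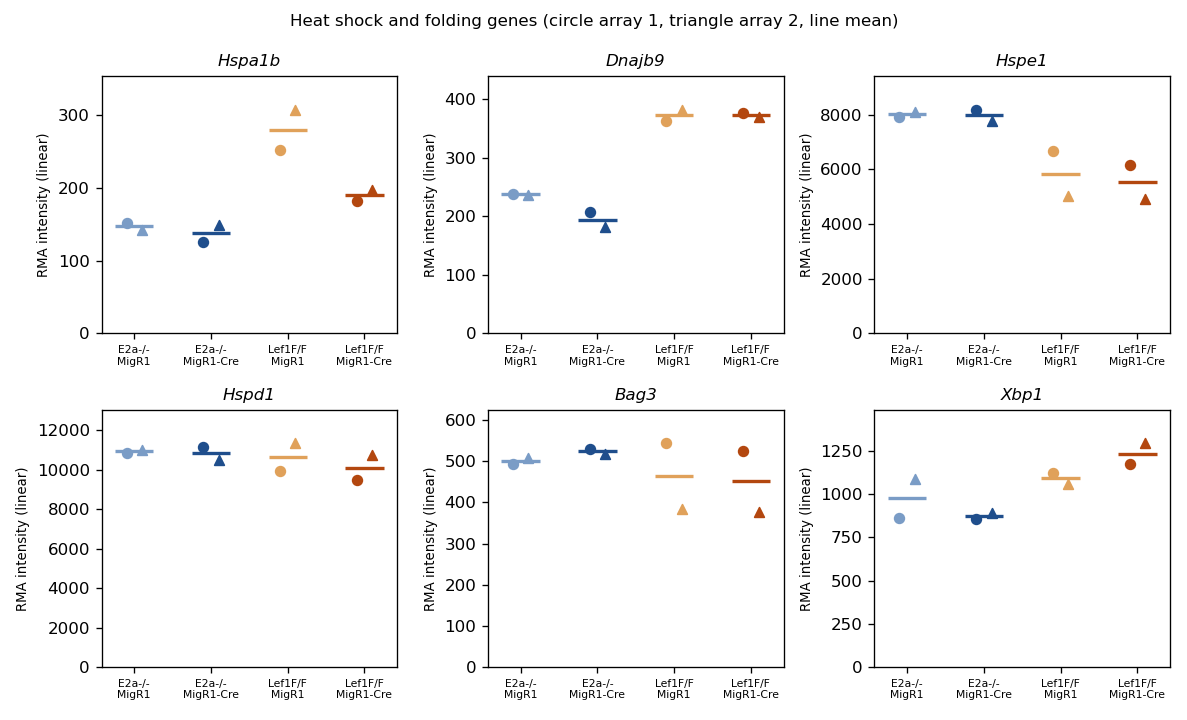
RMA intensity of Hspa1b, Dnajb9, Hspe1, Hspd1, Bag3 and Xbp1 in each array, with circles for array 1, triangles for array 2 and lines for the group mean. Hspa1b and Dnajb9 are above all E2a-/- arrays in every Lef1F/F array, and the circles of Bag3 and Hspe1 stand above the triangles in both Lef1F/F groups.

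Of the other genes of these pathways, 22 of 126 passed the threshold between the lines, 8 higher and 14 lower, against 10.7% of all probe sets. Of 18 measured sensors and eIF2 regulators, 3 passed as higher and 3 as lower, and the median log2 difference was 0.01. Atf6, the sensor that becomes a transcription factor, rose by 0.73 ± 0.06 (adjusted p = 0.000177) and Ern1, which encodes IRE1, by 0.53 ± 0.09 (adjusted p = 0.00585). Eif2ak2 (PKR), an eIF2 kinase that responds to double-stranded RNA, rose by 0.48 ± 0.10, and Eif2b3, a subunit of the exchange factor of eIF2, fell by 0.46 ± 0.07. In the wider ATF4 program 2 genes rose and 5 fell, among them the transcription factor Cebpb (0.71 ± 0.06), the repressor Jdp2 (-0.83 ± 0.07), the cystine carrier Slc7a11 (-0.63 ± 0.09) and the glutamine carrier Slc1a5 (-0.45 ± 0.08). Of the tRNA synthetases, Yars (-0.56 ± 0.09) and Aars (-0.41 ± 0.10) fell.

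In the endoplasmic reticulum, the cochaperone Dnajc3 (p58IPK), an inhibitor of PERK, rose by 0.63 ± 0.09 (adjusted p = 0.00244), while Creld2 (-0.42 ± 0.06) and Derl2, which takes part in the removal of misfolded proteins (-0.48 ± 0.07), fell. Among further heat shock genes, Fkbp5 (0.23 ± 0.06) and Hspa2 (0.30 ± 0.07) rose, and Bag2 (-0.53 ± 0.07) and Dnajc2 (-0.38 ± 0.08) fell. Summed intensities of 6 stromal and endothelial markers were also unequal between the lines, between 4677 and 4934 in E2a-/- and between 834 and 982 in Lef1F/F arrays. Of the 6, only Col1a2 fell, and it made up nearly all of this, with 4160.2 in E2a-/- and 302 in Lef1F/F MigR1 arrays, while Col1a1 read 62.6 and 63.3 and Col3a1 48.3 and 48.4, near the lower end of the scale. Pdgfrb, a pericyte and fibroblast receptor, went the other way, from 139 to 229 (0.72 ± 0.12, adjusted p = 0.00568). A dimmer probe set of Pdgfrb gave 0.15 ± 0.08 and did not pass (adjusted p = 0.328). Pecam1 and Cdh5, of endothelium, gave -0.00 ± 0.12 and 0.04 ± 0.06. The part of these genes in the differences between lines was not tested.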

How the data were processed

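Total RNA was labelled with a 3' in vitro transcription kit and hybridised to Affymetrix mouse expression arrays. RMA was run by the authors in RMAExpress (version not given in the sources used here), and the deposited values are intensities on a linear scale, without pooling of replicates. RMA makes the distributions of arrays alike, so that a change of total RNA cannot be seen, and it compresses differences between dim probe sets. Groups followed sample titles and source names. A retrovirus field in the labels, which contradicts the titles for MigR1-Cre arrays of the E2a-/- line and MigR1 arrays of the Lef1F/F line, was not used. Array numbers follow the order of the records.

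Of 45037 probe sets, 34945 have 1 symbol, 932 several and 9160 none in the platform annotation, and only those with 1 symbol named a gene. Log2 was taken without offset. Means of 4 groups were fitted over all 8 arrays with limma 3.58.1 in R 4.3.3 (lmFit and eBayes, 4 residual and 3.99 prior degrees of freedom), and two-sided p-values were adjusted by Benjamini-Hochberg over all probe sets of a contrast. The 4 contrasts share arrays. The scripts were tested on simulated data. With 2 arrays a group, the number of arrays limits the precision. Members and lists were chosen with earlier results of these data known. Every measured member is named, and values in every array are given for members past the threshold or among the 4 with the smallest p in a contrast, with a few more (Chac1, Slc7a5, Bag3 and Hspd1) chosen after their values were seen. In the other lists, up to 4 genes past the threshold are named. Alternatives were the moderation, a filter on dim probe sets, an offset, the arrays in the fit, the choice of probe set, the threshold, array weights, array numbers as a block and leaving out each array.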

Additional observations from a re-analysis of the deposited data

How the results depend on the processing

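The count of stress genes past the threshold stayed at 0 for both Cre effects and for their difference under all alternatives except those with array numbers as a replicate block, and at 2 to 4 for the lines under all but 3. The labels do not pair the arrays, but deviations of arrays with the same number correlated in the Lef1F/F line (r = 0.696) and not in the E2a-/- line (r = -0.0287). With the replicate block in both lines, 3 genes passed for Cre in the Lef1F/F line, all lower (Hspa1b, adjusted p = 0.00411, Nupr1, 0.012, and Asns, 0.0325), while 433 of all probe sets did (0.961%). With it in the Lef1F/F line alone, 1 gene passed (Hspa1b, adjusted p = 0.00881). For the difference of the Cre effects, 1 gene passed with the block in both lines (Nupr1, -0.56, adjusted p = 0.0184). Between the lines, 3 genes passed as reported, 5 with the block in both lines (Asns and Hspe1 added), 6 with a gene's probe sets averaged and 9 with all 8 arrays (4 higher and 5 lower), while 20.5% of all probe sets passed with all 8. Without 1 array at a time, the counts lay between 0 and 0 for each Cre effect and for their difference, and between 2 and 4 for the lines.

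Among the members given array by array, 270 alternative values kept their direction and side of the threshold, 12 passed only under the alternative (Hspe1 between lines in most), and 5 lost the call, all for Psat1. The difference of Xbp1 with Cre in the E2a-/- line turned from -0.15 to 0.016 without E2a-/- MigR1 replicate 2, and lay between -0.32 and 0.016 without 1 array at a time. The causes were not tested. With 2 arrays a group, median standard errors were 0.08 on the log2 scale, and 3 members lay below the lowest array median, where a difference may be understated.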
